A study of Mus musculus with 12 samples.

Results

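The genes described here encode histone methyltransferases, which add methyl groups to lysines or arginines of histones, and the lysine demethylases that remove them. The rule that chose them uses gene symbols: every gene with a symbol beginning Kdm, Kmt, Setd or Prmt followed by a digit, plus Ezh1, Ezh2, Suv39h2, Ehmt1, Ehmt2, Dot1l, Nsd1, Nsd2 and Nsd3. This gave 51 of the 18193 genes on the array, of which 25 were lysine methyltransferases, 8 arginine methyltransferases and 18 demethylases. Suv39h1 was not analysed here. Each gene was represented by the probe set with its highest mean signal over 12 Affymetrix arrays.

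Lymph node cells came from P14-TCR mice, whose transgenic T cell receptor recognises the viral peptide gp33-41. The 4 groups of 3 arrays were PKD2-null cells cultured for 4 h with the peptide at 62.5 ng/ml, wild-type cells cultured likewise with the peptide, PKD2-null cells kept in culture without it, and wild-type cells without it. All animals carried the P14 receptor, and PKD2, the product of Prkd2, is a serine/threonine kinase activated downstream of antigen receptors. Each mouse gave 1 array with and 1 without peptide, so there were 3 null and 3 wild-type mice, whose age and sex are not in the labels used here. The cells were whole lymph node suspensions with no sort named, so each array averaged T cells with other node cells.

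Methylation of H3K4 marks active promoters and enhancers, H3K36 and H3K79 methylation accompanies transcription through gene bodies, and H3K9 and H3K27 methylation accompanies silencing. Arginine methylation acts on histones and also on RNA-binding and ribosomal proteins. Most demethylases are Jumonji enzymes that need iron, oxygen and 2-oxoglutarate, and the Kdm1 enzymes use a flavin instead. In T cells these enzymes are known for setting which effector and memory genes can be switched on after activation.

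Prkd2 averaged 5.48 in null and 8.33 in wild-type cells with peptide, and 6.00 in null and 10.17 in wild-type cells without, on the log2 signal scale used throughout. Array medians lay between 4.66 and 4.72. The 6 T cell markers measured had mean levels of 10.7 to 11.4 on every array, and the 2 CD8 markers 10.3 to 11.5. Markers of B cells, plasma cells and myeloid cells were present too: 0 of the 7 B cell, 4 plasma cell and 7 myeloid markers lay below the array median on all 12 arrays, against 3 of 5 stromal and 2 of 3 erythroid markers. Null mouse 2 stood apart on both its arrays. With peptide its summed level was the highest of the null arrays for B cell markers (62.9, against 58.8 in the lowest null array), plasma cell and myeloid markers, and the lowest for T cell markers (64.9, against 68.7 in the highest null array), and the order was the same without peptide. The number of arrays limits the precision. Of the 51 genes, 48 lay above the median of every array, while Kdm4d and Prmt8 lay below it on all 12 and Kdm5d on 8.

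Antigen changed the signal of most of these genes within 4 h, and in both genotypes more fell than rose. With peptide against without, 39 of 51 passed the test in null cells (14 rose and 25 fell, 76.5%) and 41 in wild-type cells (13 rose and 28 fell, 80.4%). Of all 18193 genes, 31.5% were called in null cells (12.5% higher, 19% lower) and 35.5% in wild-type cells (15.1% higher, 20.4% lower). The genes that lay above the median of every array are a closer background for these well-expressed genes, and of those 10120 genes 52% were called in null and 58.2% in wild-type cells. The median change of the 51 was -0.34 in null and -0.44 in wild-type cells, against -0.02 in null and 0.01 in wild-type cells over all genes. A gene counted as called at an adjusted p under 0.05 (limma, two-sided, Benjamini-Hochberg over 45037 probe sets), and changes are log2 differences, peptide minus no peptide, with their standard error (SE) and n = 3 arrays a group.

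Most calls were shared between the genotypes. Of the 51 genes, 37 were called in both, 13 upward and 24 downward and none in opposite directions, which is 94.9% of the null calls and 90.2% of the wild-type calls. Every called gene moved the same way in all 3 mice of its genotype. The 3 values with and the 3 without peptide did not overlap for 39 of 39 called genes in null and 40 of 41 in wild-type cells, the exception being Kdm6a. Over all genes, called or not, such separation was seen for 17.4% (higher) and 24.1% (lower) in null cells. In wild-type cells the shares were 21.5% and 25.2%. These shares are no yardstick for the called genes, because passing the test itself favours values that do not overlap. Passing also favours the same direction in all 3 mice, so that count is no separate support.

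**Figure D1:**
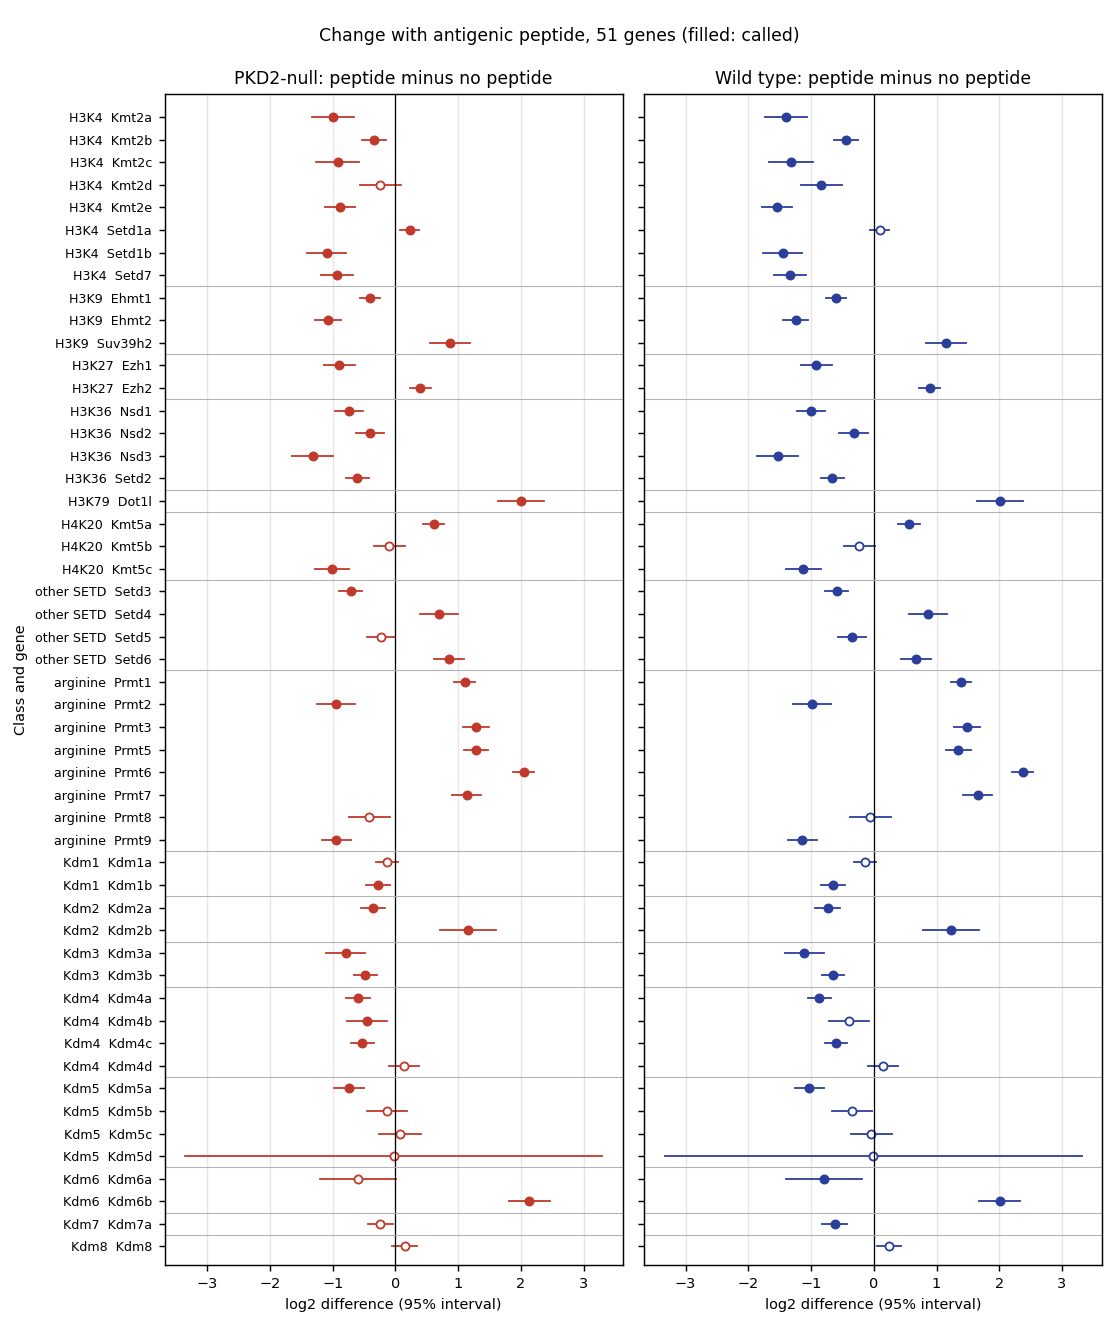
Change with peptide of each of the 51 genes by class (rows), as the log2 difference peptide minus no peptide with its 95% interval, in PKD2-null cells (left) and wild-type cells (right); filled points passed the test. Dot1l, Kdm6b and Prmt6 lie near 2 in both panels, the H3K36 genes all lie left of 0, and Kdm5d has an interval wider than the rest.

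Of the 8 arginine methyltransferases, 5 rose in both genotypes, 2 fell in both and Prmt8, at the low end of the scale, passed in neither. Prmt6, which places asymmetric dimethylarginine on H3R2, had the largest rise of the 51 genes in wild-type cells. Its signals were 8.46, 8.36 and 8.54 with peptide and 6.45, 6.42 and 6.35 without in null cells, and 8.61, 8.49 and 8.54 with peptide and 6.19, 6.14 and 6.20 without in wild-type cells. All values with peptide lay above all values without. Prmt6 rose by 2.05 (SE 0.0768, adjusted p = 6.7e-09) in null and 2.37 (SE 0.0768, adjusted p = 1.1e-09) in wild-type cells, a 4.13-fold and a 5.17-fold higher signal. Its other, dimmer probe set rose much less, by 0.31 in null (adjusted p = 0.045) and 0.37 in wild-type cells (adjusted p = 0.016).

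Prmt7, a monomethylating enzyme, read 8.87, 8.68 and 8.84 with peptide and 7.75, 7.82 and 7.42 without in null cells, and 9.08, 9.07 and 9.01 with peptide and 7.30, 7.51 and 7.39 without in wild-type cells. It rose by 1.13 (SE 0.108, adjusted p = 6.4e-06) in null and 1.65 (SE 0.108, adjusted p = 1.7e-07) in wild-type cells, with no overlap in either. The dimmer probe sets of Prmt7 were not called, at 0.25 and 0.08 in null and 0.06 and -0.02 in wild-type cells. Prmt3 is a cytosolic enzyme whose best known substrate is the ribosomal protein Rps2. Prmt3 read 9.88, 9.51 and 9.78 with peptide and 8.47, 8.41 and 8.41 without in null cells, and 9.69, 9.68 and 9.75 with peptide and 8.26, 8.16 and 8.22 without in wild-type cells, and rose by 1.29 in null and 1.49 in wild-type cells (adjusted p = 7.9e-07 in null, 1.3e-07 in wild type). Prmt5, the main enzyme of symmetric dimethylation, read 9.80, 9.64 and 9.72 with peptide and 8.47, 8.54 and 8.29 without in null cells, and 9.70, 9.67 and 9.58 with peptide and 8.21, 8.37 and 8.33 without in wild-type cells. Its rises were 1.28 in null and 1.35 in wild-type cells (adjusted p = 5.2e-07 in null, 1.9e-07 in wild type), from a probe set that can bind more than 1 transcript. Prmt1, the main asymmetric enzyme, rose by 1.10 in null and 1.39 in wild-type cells (adjusted p = 4.4e-07 in null, 3.5e-08 in wild type). Against these, Prmt2 fell by 0.95 in null and 0.98 in wild-type cells, and Prmt9, which methylates a splicing factor, fell by 0.94 in null and 1.14 in wild-type cells. Prmt8, known from brain, gave -0.42 (SE 0.15, adjusted p = 0.062) in null cells, which passed with the mouse as a block (adjusted p = 0.049), with the mean over all probe sets (0.046), with a trend in eBayes (0.043) and without null mouse 2 (0.047) or its array lacking peptide (0.021), and -0.05 in wild-type cells. Prmt8 has 1 probe set, so the mean left its change as it was and only the fit and adjustment over all genes differed.

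The partners of the arginine enzymes included the largest changes of that related list. Wdr77, the obligate subunit of the Prmt5 complex, rose by 1.63 in null and 1.98 in wild-type cells, and Clns1a, which brings splicing substrates to Prmt5, by 0.61 in null and 0.78 in wild-type cells. Btg2, which binds Prmt1, fell by 0.54 in null and 0.66 in wild-type cells. Of the 6 partners 2 rose and 1 fell in null, and 3 rose and 1 fell in wild-type cells. Genes of the cycle that supplies the methyl donor were called in 4 of 7 in null (3 up) and 5 of 7 in wild-type cells (4 up). Mtap, which salvages methylthioadenosine, an inhibitor of Prmt5, rose by 2.12 in null and 2.64 in wild-type cells, Mtrr, the reductase that keeps methionine synthase active, by 2.04 in null and 2.25 in wild-type cells, and Mat2b, the regulatory subunit of methionine adenosyltransferase, fell by 0.70 in null and 0.99 in wild-type cells.

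Since several arginine enzymes moved together, the 250 bases before each start site were searched for CACGTG, the E-box bound by Myc and related factors, which reads the same on both strands. RefSeq (GRCm38.p6) gave promoters for 40 of the 51 genes, and 5 of them held the motif (12.5%), against 6.86% of all 27025 genes with a promoter. The 5 were Prmt1 and Prmt3, which rose in both genotypes, Ehmt2 and Kdm4c, which fell in both, and Kdm6a, which fell in wild-type cells. The promoters of 4 are shown 5′ to 3′ on the gene's strand, ending at the base before the start site, with the motif in capitals, to set those of 2 rising genes beside those of 2 falling ones. They lie at chr7:44986421-44986670 (Prmt1, minus strand), chr7:49778108-49778357 (Prmt3, plus), chr17:34898224-34898473 (Ehmt2, plus, the first of its start sites with the motif) and chr4:74251629-74251878 (Kdm4c, plus).
Prmt1: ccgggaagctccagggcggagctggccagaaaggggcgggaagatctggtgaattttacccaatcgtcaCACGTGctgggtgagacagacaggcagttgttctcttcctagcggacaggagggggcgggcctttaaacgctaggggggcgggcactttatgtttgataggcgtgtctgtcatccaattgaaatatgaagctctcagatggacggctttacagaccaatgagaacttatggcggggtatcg
Prmt3: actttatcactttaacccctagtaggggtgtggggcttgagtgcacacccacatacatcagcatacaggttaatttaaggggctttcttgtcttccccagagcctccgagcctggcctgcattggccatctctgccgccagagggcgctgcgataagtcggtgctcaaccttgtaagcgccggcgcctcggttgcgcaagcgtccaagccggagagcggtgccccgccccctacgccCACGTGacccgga
Ehmt2: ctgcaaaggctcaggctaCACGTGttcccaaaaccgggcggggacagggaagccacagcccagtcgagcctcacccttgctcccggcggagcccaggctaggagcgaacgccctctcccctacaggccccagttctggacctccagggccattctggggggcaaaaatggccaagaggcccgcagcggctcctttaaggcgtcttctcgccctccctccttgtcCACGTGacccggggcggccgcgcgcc
Kdm4c: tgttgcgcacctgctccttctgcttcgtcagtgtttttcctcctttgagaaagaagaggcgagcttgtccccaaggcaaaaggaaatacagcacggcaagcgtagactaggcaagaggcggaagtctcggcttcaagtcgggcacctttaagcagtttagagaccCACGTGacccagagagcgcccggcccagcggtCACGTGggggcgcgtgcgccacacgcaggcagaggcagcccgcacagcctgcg
The motif began 181 bases before the start site in Prmt1, 13 in Prmt3, 232 and 26 in Ehmt2, and 85 and 53 in Kdm4c. Genes with it went in both directions, and a match is a description of these letters only.

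The H3K4 methyltransferases mostly fell. Of 8 genes, 6 fell and 1 rose in null cells and 7 fell in wild-type cells, with a median of -0.90 in null and -1.33 in wild-type cells. Kmt2e, a SET domain protein of the family whose own methyltransferase activity is uncertain, read 10.25, 10.14 and 10.19 with peptide and 11.16, 11.06 and 11.01 without in null cells, and 9.61, 9.23 and 9.51 with peptide and 11.06, 10.80 and 11.08 without in wild-type cells. It fell by 0.88 in null (SE 0.11, adjusted p = 5.7e-05) and 1.54 in wild-type cells (SE 0.11, adjusted p = 3.7e-07), without overlap. Setd1b, a catalytic subunit of a COMPASS complex, read 8.47, 8.11 and 8.27 with peptide and 9.38, 9.06 and 9.70 without in null cells, and 7.90, 7.67 and 7.86 with peptide and 9.27, 9.24 and 9.27 without in wild-type cells. Its changes were -1.10 (SE 0.144, adjusted p = 8.4e-05) in null and -1.45 (SE 0.144, adjusted p = 5.5e-06) in wild-type cells.

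Kmt2a, or MLL1, which Hox genes depend on, read 8.71, 8.54 and 8.53 with peptide and 9.57, 9.40 and 9.79 without in null cells, and 8.33, 8.33 and 8.63 with peptide and 9.96, 10.06 and 9.47 without in wild-type cells. It changed by -0.99 in null and -1.40 in wild-type cells (adjusted p = 0.00032 in null, 1.3e-05 in wild type). Setd7, which monomethylates H3K4 and several other proteins, read 8.86, 8.58 and 8.80 with peptide and 9.72, 9.43 and 9.87 without in null cells, and 8.59, 8.48 and 8.65 with peptide and 9.97, 9.95 and 9.81 without in wild-type cells, with changes of -0.93 in null and -1.34 in wild-type cells (adjusted p = 6.6e-05 in null, 2e-06 in wild type). Of the remaining genes, Kmt2c, which serves enhancers, changed by -0.92 in null and -1.32 in wild-type cells and Kmt2b by -0.34 in null and -0.44 in wild-type cells. The null call of Kmt2b was lost without any 1 of the 3 null mice (adjusted p of 0.054 to 0.082). Kmt2d, the partner enzyme of Kmt2c at enhancers, was called only in wild-type cells (-0.24 in null, adjusted p = 0.32; -0.84 in wild type, adjusted p = 0.00084), and the difference between these changes did not pass (adjusted p = 0.63).

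Setd1a, the paralogue of Setd1b, was the H3K4 gene that did not fall. It rose by 0.23 (SE 0.0716, adjusted p = 0.035) in null cells and gave 0.09 (SE 0.0716, adjusted p = 0.42) in wild-type cells. The null call was lost with the mouse as a block (adjusted p = 0.06), in a fit of the null arrays alone (0.1), with the mean over all probe sets (0.054), without null peptide arrays 1 or 3, without null arrays 1 or 2 of the culture without peptide, and without any of the 6 mice, with adjusted p up to 0.22. Of 13 COMPASS partners 1 rose and 3 fell in null and 1 rose and 5 fell in wild-type cells. Wdr5, the scaffold that Kmt2 enzymes need, rose by 0.69 in null and 0.96 in wild-type cells, Men1, the menin tether of Kmt2a and Kmt2b, fell by 0.91 in null and 0.98 in wild-type cells, and Bod1l, a Setd1a partner, fell by 0.50 in null and 0.95 in wild-type cells.

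All 4 H3K36 methyltransferases fell in both genotypes, with medians of -0.67 in null and -0.83 in wild-type cells. Nsd3 fell most. It read 9.23, 9.14 and 9.20 with peptide and 10.54, 10.22 and 10.76 without in null cells, and 9.05, 8.95 and 9.39 with peptide and 10.84, 10.47 and 10.68 without in wild-type cells, a change of -1.32 (SE 0.15, adjusted p = 2.6e-05) in null and -1.53 (SE 0.15, adjusted p = 4.8e-06) in wild-type cells. Nsd1, a dimethylating enzyme, read 8.62, 8.57 and 8.61 with peptide and 9.34, 9.17 and 9.51 without in null cells, and 8.27, 8.20 and 8.28 with peptide and 9.23, 9.43 and 9.09 without in wild-type cells. It changed by -0.74 in null and -0.9995 in wild-type cells (adjusted p = 0.00015 in null, 8.9e-06 in wild type). Setd2, the enzyme of H3K36 trimethylation, read 8.67, 8.71 and 8.73 with peptide and 9.36, 9.25 and 9.33 without in null cells, and 8.61, 8.35 and 8.52 with peptide and 9.08, 9.19 and 9.19 without in wild-type cells. Its changes of -0.61 in null and -0.66 in wild-type cells passed too (adjusted p = 0.00013 in null, 4.6e-05 in wild type). Nsd2, another dimethylating enzyme, moved least. Nsd2 read 6.83, 7.06 and 6.70 with peptide and 7.25, 7.31 and 7.26 without in null cells, and 6.63, 6.88 and 6.87 with peptide and 7.05, 7.21 and 7.08 without in wild-type cells, a change of -0.41 (SE 0.104, adjusted p = 0.01) in null and -0.32 (SE 0.104, adjusted p = 0.034) in wild-type cells. Its null call was lost without null peptide array 3 or null mouse 1 or 3 (adjusted p up to 0.1). The wild-type call was lost without wild-type peptide array 1, any wild-type array without peptide, any wild-type mouse or null mouse 1, and after quantile normalization (adjusted p up to 0.16).

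Dot1l, the H3K79 methyltransferase, rose in both genotypes. It read 9.75, 9.50 and 9.78 with peptide and 7.57, 7.69 and 7.79 without in null cells, and 9.91, 9.42 and 9.55 with peptide and 7.74, 7.88 and 7.22 without in wild-type cells. The rise was 2.00 (SE 0.168, adjusted p = 2.3e-06) in null, 3.99-fold, and 2.01 (SE 0.168, adjusted p = 1.3e-06) in wild-type cells, 4.04-fold. The difference between them was -0.02, with a 95% interval of -0.53 to 0.50. Its partners went the other way except 1: of 6, 5 fell and 1 rose in both genotypes. Mllt3, which reads acetylated histones, fell by 1.05 in null and 1.28 in wild-type cells and Mllt10, a Dot1l cofactor, by 0.71 in null and 0.88 in wild-type cells, while Mllt1 rose by 0.68 in null and 0.92 in wild-type cells.

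The pair of H3K27 methyltransferases moved apart. Ezh2, the catalytic subunit of Polycomb repressive complex 2 (PRC2) in dividing cells, read 8.38, 8.26 and 8.30 with peptide and 7.96, 7.83 and 7.95 without in null cells, and 8.51, 8.56 and 8.49 with peptide and 7.68, 7.59 and 7.62 without in wild-type cells. It rose by 0.40 (SE 0.0744, adjusted p = 0.0013) in null and 0.89 (SE 0.0744, adjusted p = 1.3e-06) in wild-type cells. Ezh1, the subunit that prevails in resting cells, read 9.11, 8.71 and 8.91 with peptide and 9.89, 9.65 and 9.88 without in null cells, and 8.86, 8.76 and 8.70 with peptide and 9.71, 9.80 and 9.57 without in wild-type cells. It fell by 0.90 in null and 0.92 in wild-type cells (adjusted p = 6.7e-05 in null, 3.8e-05 in wild type). Values with and without peptide did not overlap for either gene. Of 9 PRC2 partners 3 rose and 1 fell in null and 3 rose and 2 fell in wild-type cells: Jarid2 rose by 0.81 in null and 0.99 in wild-type cells, the histone-binding subunit Rbbp7 by 0.84 in null and 0.80 in wild-type cells, and Phf1 fell by 0.67 in null and 0.98 in wild-type cells.

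**Figure D2:**
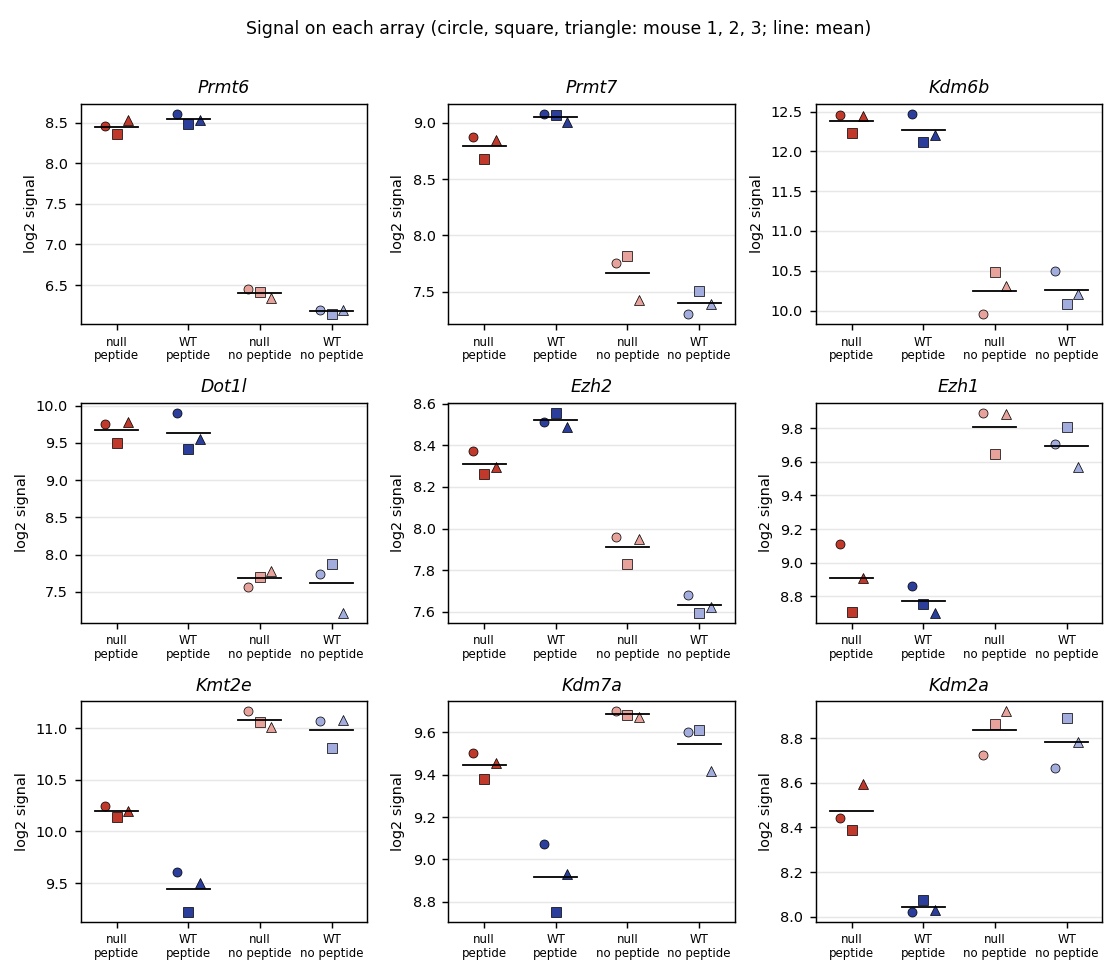
Log2 signal of 9 genes on each of the 12 arrays, with null beside wild-type cells, first with and then without peptide; symbols are the 3 mice of each genotype and lines are group means. Prmt6, Prmt7, Kdm6b, Dot1l and Ezh2 are higher with peptide, the other 4 are lower, and Kmt2e, Kdm7a and Kdm2a are higher in null than in wild-type cells with peptide.

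Of the 3 H3K9 methyltransferases Suv39h2 rose and Ehmt1 and Ehmt2 fell in both genotypes. Suv39h2, an enzyme of pericentric heterochromatin, read 5.81, 5.92 and 6.00 with peptide and 5.15, 5.24 and 4.72 without in null cells, and 6.17, 6.19 and 6.38 with peptide and 5.36, 5.04 and 4.88 without in wild-type cells. It rose by 0.87 (SE 0.147, adjusted p = 0.0006) in null and 1.16 (SE 0.147, adjusted p = 4.5e-05) in wild-type cells, the second of its 3 probe sets by 2.10 in null and 2.54 in wild-type cells, and the dimmest changed by 0.26 in null (adjusted p = 0.21) and 0.39 in wild-type cells (adjusted p = 0.045). Ehmt2, or G9a, which dimethylates H3K9 in euchromatin, read 7.52, 7.79 and 7.49 with peptide and 8.64, 8.76 and 8.64 without in null cells, and 7.24, 7.14 and 7.31 with peptide and 8.48, 8.51 and 8.44 without in wild-type cells. It fell by 1.08 in null and 1.25 in wild-type cells (adjusted p = 2.8e-06 in null, 4.9e-07 in wild type). Ehmt1 forms a heteromer with Ehmt2. Ehmt1 read 9.23, 9.17 and 9.21 with peptide and 9.55, 9.61 and 9.68 without in null cells, and 9.09, 8.99 and 9.08 with peptide and 9.61, 9.72 and 9.62 without in wild-type cells, and fell by 0.41 in null and 0.60 in wild-type cells (adjusted p = 0.0011 in null, 3.6e-05 in wild type). Of 8 readers and partners 3 rose and 1 fell in each genotype. Wiz, which binds the Ehmt1 and Ehmt2 heteromer, rose by 0.71 in null and 0.51 in wild-type cells, and Trim28, a corepressor of zinc finger proteins, by 0.33 in null and 0.33 in wild-type cells, while Atf7ip, a stabiliser of Setdb1, fell by 0.42 in null and 0.79 in wild-type cells.

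The H4K20 enzymes differed as well. Kmt5a, the monomethylating enzyme, read 9.96, 9.95 and 9.85 with peptide and 9.39, 9.22 and 9.32 without in null cells, and 10.04, 10.04 and 10.01 with peptide and 9.39, 9.49 and 9.53 without in wild-type cells, and rose by 0.61 (SE 0.0779, adjusted p = 6.9e-05) in null and 0.56 (SE 0.0779, adjusted p = 9.7e-05) in wild-type cells. Kmt5c, which builds the higher methylated states, read 6.49, 6.47 and 6.55 with peptide and 7.73, 7.30 and 7.53 without in null cells, and 6.20, 6.39 and 6.31 with peptide and 7.35, 7.68 and 7.24 without in wild-type cells. It fell by 1.01 in null and 1.12 in wild-type cells (adjusted p = 5.6e-05 in null, 1.6e-05 in wild type). Kmt5b passed in neither genotype (-0.10 in null and -0.23 in wild-type cells), but its second-brightest probe set was called lower by 0.57 in null and 0.69 in wild-type cells (adjusted p = 0.0026 in null, 0.00049 in wild type). In null cells a dimmer probe set was called higher by 0.36 (adjusted p = 0.0068), so its probe sets disagree in direction there. With the mean over all probe sets the wild-type change of Kmt5b passed too (-0.24, adjusted p = 0.027).

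The remaining SETD genes have substrates other than histones or uncertain ones. Setd6, which methylates the NF-kappa B subunit RelA, read 8.58, 8.32 and 8.48 with peptide and 7.70, 7.52 and 7.59 without in null cells, and 8.44, 8.12 and 8.25 with peptide and 7.58, 7.74 and 7.45 without in wild-type cells, and rose by 0.86 in null and 0.68 in wild-type cells (adjusted p = 7.7e-05 in null, 0.00037 in wild type). Its probe set can bind more than 1 transcript. Setd4 read 7.63, 7.12 and 7.40 with peptide and 6.72, 6.72 and 6.63 without in null cells, and 7.31, 7.11 and 6.98 with peptide and 6.25, 6.49 and 6.07 without in wild-type cells, and rose by 0.69 in null and 0.86 in wild-type cells (adjusted p = 0.0023 in null, 0.00033 in wild type). Setd3, the histidine methyltransferase of actin, read 8.72, 9.02 and 8.91 with peptide and 9.61, 9.55 and 9.62 without in null cells, and 8.96, 9.04 and 8.98 with peptide and 9.59, 9.55 and 9.61 without in wild-type cells. It fell by 0.71 in null and 0.59 in wild-type cells (adjusted p = 3.8e-05 in null, 0.00012 in wild type). Setd5 was called in wild-type cells alone. Setd5 read 9.08, 8.97 and 8.92 with peptide and 9.24, 9.02 and 9.40 without in null cells, and 8.79, 8.77 and 8.87 with peptide and 9.16, 9.27 and 9.03 without in wild-type cells, a change of -0.23 (SE 0.105, adjusted p = 0.15) in null and -0.35 (SE 0.105, adjusted p = 0.024) in wild-type cells. The wild-type call was lost without wild-type peptide arrays 1 or 2, wild-type arrays 1 or 2 without peptide, or wild-type mice 1 or 2 (adjusted p up to 0.21), and with the mean over all probe sets (0.77), and the null change passed without null array 2 lacking peptide (adjusted p = 0.031). Another probe set of Setd5 was called higher in both genotypes (0.55 in null, 0.56 in wild type), so its probe sets disagree in direction.

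Among the demethylases 2 of 18 rose and 8 fell in null cells, and 2 rose and 9 fell in wild-type cells. Kdm6b and Kdm2b were the 2 that rose. Kdm6b, an inducible H3K27 demethylase known from inflammatory gene activation, read 12.46, 12.24 and 12.45 with peptide and 9.96, 10.48 and 10.31 without in null cells, and 12.47, 12.11 and 12.21 with peptide and 10.49, 10.09 and 10.21 without in wild-type cells. The groups were far apart. It rose by 2.13 (SE 0.149, adjusted p = 5.4e-07) in null, 4.39-fold, and 2.00 (SE 0.149, adjusted p = 5e-07) in wild-type cells, 4.01-fold. Kdm2b, which brings a variant Polycomb complex to CpG islands, read 10.72, 11.09 and 10.95 with peptide and 9.33, 10.17 and 9.80 without in null cells, and 11.51, 11.29 and 11.24 with peptide and 10.51, 9.95 and 9.92 without in wild-type cells. It rose by 1.15 (SE 0.205, adjusted p = 0.00093) in null and 1.22 (SE 0.205, adjusted p = 0.00045) in wild-type cells, by a probe set that can bind more than 1 transcript.

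Its paralogue Kdm2a, which removes methyl groups from H3K36 at CpG islands, fell instead. Kdm2a read 8.44, 8.39 and 8.59 with peptide and 8.72, 8.86 and 8.92 without in null cells, and 8.02, 8.08 and 8.03 with peptide and 8.67, 8.89 and 8.78 without in wild-type cells, a change of -0.36 (SE 0.0899, adjusted p = 0.0093) in null and -0.74 (SE 0.0899, adjusted p = 3.2e-05) in wild-type cells. The null call was lost without null mouse 2 (adjusted p = 0.09). The H3K9 demethylases Kdm3a and Kdm3b fell in both genotypes. Kdm3a, which hypoxia induces, read 10.11, 9.55 and 9.90 with peptide and 10.77, 10.40 and 10.77 without in null cells, and 9.54, 9.42 and 9.65 with peptide and 10.69, 10.70 and 10.54 without in wild-type cells, and fell by 0.79 in null and 1.11 in wild-type cells (adjusted p = 0.00098 in null, 5.1e-05 in wild type). Kdm3b read 9.60, 9.47 and 9.43 with peptide and 9.86, 10.03 and 10.03 without in null cells, and 9.31, 9.18 and 9.30 with peptide and 9.87, 9.91 and 9.96 without in wild-type cells. It fell by 0.48 in null and 0.65 in wild-type cells (adjusted p = 0.00076 in null, 4.6e-05 in wild type), while its other, dimmer probe set was called higher by 1.06 in null and 1.02 in wild-type cells. The direction of Kdm3b thus depends on the probe set, and with the mean over all of them the wild-type call was lost (adjusted p = 0.2). With that mean the null change passed in the other direction, as a rise.

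Kdm4 enzymes remove methyl groups from H3K9 and H3K36. Kdm4a read 7.86, 7.91 and 7.78 with peptide and 8.44, 8.32 and 8.57 without in null cells, and 7.48, 7.66 and 7.63 with peptide and 8.43, 8.47 and 8.48 without in wild-type cells, and fell by 0.60 in null and 0.87 in wild-type cells (adjusted p = 0.00018 in null, 5.5e-06 in wild type). With the mean over both its probe sets, of which 1 is dim, the null change of Kdm4a was -0.21 and not called (adjusted p = 0.062). Kdm4c, with 2 motifs in the promoter printed above, read 7.18, 7.01 and 7.20 with peptide and 7.67, 7.65 and 7.64 without in null cells, and 7.05, 7.05 and 7.20 with peptide and 7.78, 7.69 and 7.64 without in wild-type cells. It fell by 0.53 in null and 0.60 in wild-type cells (adjusted p = 0.00035 in null, 8.7e-05 in wild type). Kdm4b was called in null cells alone. Kdm4b read 6.92, 6.69 and 6.85 with peptide and 7.51, 6.94 and 7.38 without in null cells, and 6.65, 6.94 and 6.71 with peptide and 7.04, 7.38 and 7.06 without in wild-type cells, a change of -0.46 (SE 0.149, adjusted p = 0.04) in null and -0.39 (SE 0.149, adjusted p = 0.069) in wild-type cells, and with the mouse as a block the wild-type change passed too (adjusted p = 0.0076). The null call was lost without any null peptide array, null arrays 1 or 3 without peptide, null mice 1 or 3, wild-type peptide array 3 or wild-type mice 1 or 3 (adjusted p up to 0.2), after quantile normalization (0.079) or median centring (0.05), and in a fit of the null arrays alone (0.072). Without null mouse 2, or its array without peptide alone, the wild-type change of Kdm4b passed (adjusted p = 0.024 and 0.025), as it did without dim probe sets (0.048) and in a fit of the wild-type arrays alone (0.049). Kdm4d passed in neither.

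Of the 4 Kdm5 genes, which encode H3K4 demethylases, 1 was called. Kdm5a read 9.60, 9.64 and 9.52 with peptide and 10.34, 10.32 and 10.32 without in null cells, and 9.34, 9.02 and 9.44 with peptide and 10.38, 10.15 and 10.34 without in wild-type cells. It fell by 0.74 in null and 1.03 in wild-type cells (adjusted p = 0.0002 in null, 8.8e-06 in wild type). Kdm5b gave -0.13 in null and -0.35 in wild-type cells, of which the second passed with the mouse as a block (adjusted p = 0.017) and with the mean over all probe sets (0.04), and Kdm5c gave 0.07 in null and -0.04 in wild-type cells. Kdm1b, a flavin enzyme that acts on H3K4, read 7.42, 7.53 and 7.51 with peptide and 7.67, 7.75 and 7.88 without in null cells, and 7.21, 7.37 and 7.33 with peptide and 8.04, 7.98 and 7.86 without in wild-type cells, a change of -0.28 (SE 0.0861, adjusted p = 0.031) in null and -0.65 (SE 0.0861, adjusted p = 6.4e-05) in wild-type cells. Its null call was lost without null peptide arrays 1 or 3, null arrays 2 or 3 without peptide, or any null mouse (adjusted p up to 0.19), after quantile normalization (0.12) and in a fit of the null arrays alone (0.066). Its relative Kdm1a, the catalytic subunit of the CoREST complex, passed in neither genotype (-0.13 in null and -0.14 in wild-type cells), by a probe set that can bind more than 1 transcript, but the wild-type change was -0.25 and passed after quantile normalization (adjusted p = 0.026). Of 9 CoREST partners 1 rose and 4 fell in null and 1 rose and 5 fell in wild-type cells. The corepressor Rcor3 changed by -1.34 in null and -1.71 in wild-type cells, Zmym2, a zinc finger gene, by -0.88 in null and -1.33 in wild-type cells, and Phf21a, which reads unmethylated H3K4, by -1.03 in null and -1.20 in wild-type cells.

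Kdm7a acts on H3K9 and H3K27. Kdm7a read 9.50, 9.38 and 9.45 with peptide and 9.70, 9.68 and 9.67 without in null cells, and 9.07, 8.75 and 8.93 with peptide and 9.60, 9.61 and 9.42 without in wild-type cells, a change of -0.24 (SE 0.0938, adjusted p = 0.089) in null and -0.63 (SE 0.0938, adjusted p = 0.00018) in wild-type cells, of which only the second was called, and the difference between them did not pass (adjusted p = 0.59). After quantile normalization the null fall passed too (-0.29, adjusted p = 0.022). Kdm8 read 5.68, 5.61 and 5.59 with peptide and 5.51, 5.50 and 5.43 without in null cells, and 5.51, 5.59 and 5.60 with peptide and 5.17, 5.51 and 5.29 without in wild-type cells, a change of 0.15 in null and 0.24 in wild-type cells (adjusted p = 0.31 in null, 0.062 in wild type). The wild-type change of Kdm8 passed without wild-type mouse 2, or without its array lacking peptide alone (adjusted p of 0.011 for the array), and also after quantile normalization (0.024), without dim probe sets (0.036) and with the mean over all probe sets (0.036). Kdm8 too has 1 probe set, so the mean left its change as it was. Enzymes of other names that act on histone methylation were called in both directions, 6 up and 5 down of 19 in each genotype. Smyd2, a lysine methyltransferase with p53 among its substrates, rose by 3.39 in null and 3.84 in wild-type cells, Smyd5 by 1.87 in null and 2.48 in wild-type cells, and Riox1, a nucleolar oxygenase, by 1.26 in null and 1.41 in wild-type cells. Of those that fell Smyd4, named after its values were seen, changed most, by -1.19 in null and -1.44 in wild-type cells.

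The X- and Y-linked demethylases split the mice rather than the groups. Kdm5d, on the Y chromosome, read 2.90, 2.99 and 7.10 with peptide and 3.07, 2.99 and 7.02 without in null cells, and 3.13, 6.81 and 3.08 with peptide and 2.88, 7.07 and 3.09 without in wild-type cells. It was high on both arrays of null mouse 3 and of wild-type mouse 2 and low elsewhere, and its 95% intervals are the widest of the 51. Xist, the RNA of the inactive X chromosome, read 5.33 and 5.57 on the arrays with and without peptide of null mouse 3 and 5.77 and 5.33 on those of wild-type mouse 2, and 11.2 to 12.2 on the other 8 arrays. Kdm5c, on the X chromosome, was lowest in those mice too, at 7.57 and 7.48 in null mouse 3 and 7.49 and 7.59 in wild-type mouse 2, against 7.77 to 8.01 elsewhere. These genes were singled out after their values were seen, and no group was formed from them. There was 1 such mouse in each genotype.

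Kdm6a, the X-linked H3K27 demethylase, showed both the response and this split. Kdm6a read 9.20, 9.18 and 8.50 with peptide and 9.79, 9.65 and 9.22 without in null cells, and 8.81, 8.15 and 9.16 with peptide and 9.75, 9.05 and 9.71 without in wild-type cells, with the lowest value of each group in the same 2 mice. Its change was -0.59 (SE 0.278, adjusted p = 0.16) in null and -0.79 (SE 0.278, adjusted p = 0.049) in wild-type cells. Within each mouse it was lower with peptide by 0.59, 0.46 and 0.72 in null and by 0.94, 0.90 and 0.55 in wild-type cells, and with the mouse as a block it passed in both genotypes (adjusted p = 0.0015 in null and 0.00018 in wild type). Without the block the wild-type call was lost in 13 of 18 fits that left out 1 array or 1 mouse (adjusted p up to 0.21): wild-type peptide arrays 1 or 2, wild-type arrays 1 or 3 without peptide, null arrays 1 or 2 with or without peptide, or any mouse but null mouse 3. It was also lost with median centring (0.052), the mean over all probe sets (0.067), a fit of the wild-type arrays alone (0.063) and a trend in eBayes (0.081).

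**Figure D3:**
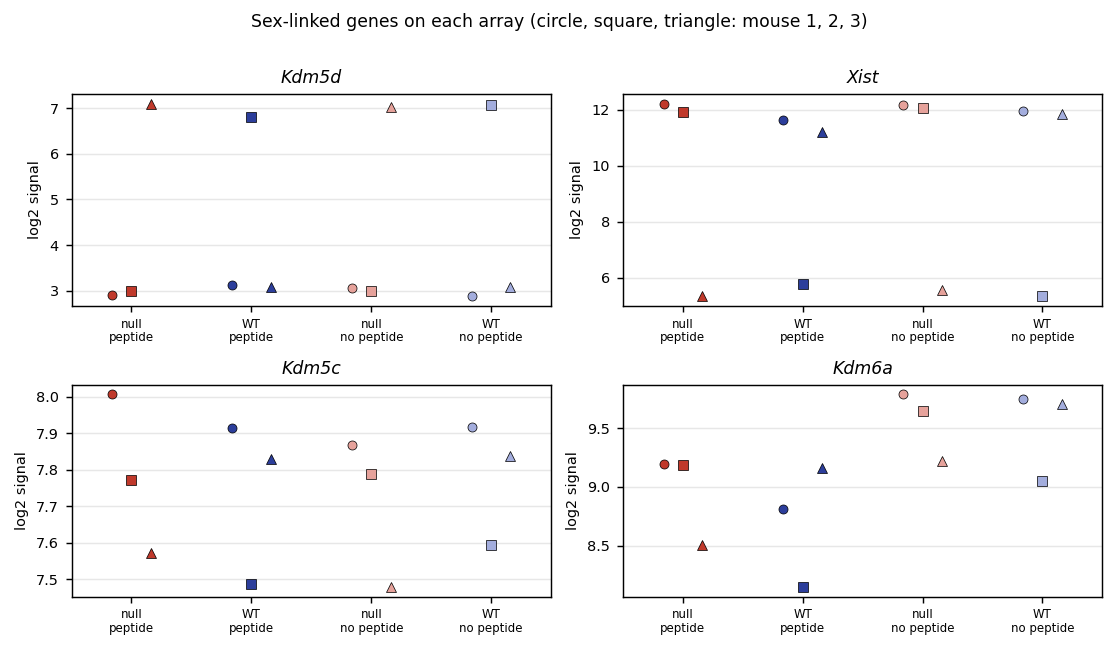
Log2 signal of 3 demethylase genes on the X or Y chromosome and of Xist on each of the 12 arrays; symbols are the 3 mice of each genotype. Null mouse 3 and wild-type mouse 2 are high for Kdm5d and low for Xist, Kdm5c and Kdm6a.

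Other probe sets of the same genes bear on the calls. The 51 genes had 144 probe sets in all, with 1 for 14 genes and several for 37. Of the called genes with several, 19 of 28 in null and 22 of 31 in wild-type cells had another probe set called the same way. Kdm3b in both genotypes and Setd5 in wild-type cells had one called the opposite way. Among genes not called, another probe set passed for Kmt5b and Setd5 in null cells and for Kmt5b, Kdm5b and Kdm5c in wild-type cells. The called probe sets of Kmt5b in null cells went in opposite directions.

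The size of the response was mostly smaller in null cells, as it was over all genes. Of the 37 genes called in both genotypes, 32 changed less in null cells, 22 of the 24 that fell and 10 of the 13 that rose. Over the 5190 genes called the same way in both, the shares with a smaller change in null cells were 77.2% in all, 74.9% of those that fell and 80.7% of those that rose. The difference between the 2 changes was called for 0 of the 51 genes by limma, and over all genes for 1 (0.0055%). At an unadjusted p under 0.05 there were 11 of the 51, against 1402 of all 18193 genes. Smallest in p was Ezh2, with a difference of -0.49 (SE 0.105, adjusted p = 0.41), null change minus wild-type change. It was followed by Kmt2e at 0.65 (adjusted p = 0.45), Prmt7 at -0.52 (adjusted p = 0.52), Kdm1b at 0.37 (adjusted p = 0.56) and Prmt6 at -0.32 (adjusted p = 0.58).

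Without peptide, 0 of the 51 genes passed the test of null against wild-type cells (limma), against 0.044% of all genes. An unadjusted p under 0.05 was seen for 7 of the 51, against 1928 of all 18193 genes. The median difference, null minus wild type, was 0.05 against 0.0076 over all genes. The 5 with the smallest p were Ezh2 at 0.28 (SE 0.0744, adjusted p = 0.25), Setd4 at 0.42 (adjusted p = 0.39), Prmt6 at 0.23 (adjusted p = 0.4), Prmt7 at 0.27 (adjusted p = 0.5) and Prmt3 at 0.22 (adjusted p = 0.54). The 3 null and 3 wild-type values lay apart, higher in null cells, for 8 of the 51 genes, against 9.59% of all genes. They lay apart and lower for 1 of the 51, against 6.78% of all genes. The median half-width of the 95% intervals was 0.235, and for 50 of 51 genes, all but Kdm5d, the interval lay within 1 of 0.

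With peptide, 3 of the 51 genes passed the test (5.88%, against 1.64% of all genes, 1.09% higher and 0.544% lower, and 2.54% of the genes above the median of every array), and all 3 were higher in null cells. Kmt2e read 10.25, 10.14 and 10.19 in null and 9.61, 9.23 and 9.51 in wild-type cells with peptide, a difference of 0.75 (SE 0.11, adjusted p = 0.01) and a 1.68-fold higher signal in null cells. Kdm7a read 9.50, 9.38 and 9.45 in null and 9.07, 8.75 and 8.93 in wild-type cells, 0.53 (SE 0.0938, adjusted p = 0.024). Kdm2a read 8.44, 8.39 and 8.59 in null and 8.02, 8.08 and 8.03 in wild-type cells, 0.43 (SE 0.0899, adjusted p = 0.044). For each the null values lay above the wild-type values. All 3 genes fell with peptide in wild-type cells, and without peptide their null minus wild-type differences were 0.09, 0.14 and 0.05.

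These 3 calls rest on few arrays. All were lost without null peptide array 1, without null mouse 1 or 3, and in a fit of the peptide arrays alone. Without null peptide array 1 the adjusted p was 0.061 for Kmt2e, 0.11 for Kdm7a and 0.14 for Kdm2a. In the fit of the peptide arrays alone it was, for the same genes, 0.061, 0.1 and 0.11. Without null mouse 3 it was 0.059, 0.1 and 0.17, and without null mouse 1 it was 0.089, 0.15 and 0.15. Kdm7a and Kdm2a were also lost without null peptide array 3, wild-type peptide arrays 2 or 3, or wild-type mice 2 or 3 (adjusted p up to 0.11 for Kdm7a and 0.15 for Kdm2a). The call of Kdm2a was lost in 14 of 18 such fits, including those without wild-type peptide array 1, wild-type mouse 1, null array 3 without peptide and each wild-type array without peptide (adjusted p of 0.051 to 0.091), and after quantile normalization (0.12). With the mean over all probe sets Kdm7a (0.12) and Kdm2a (0.19) were lost. Without null mouse 2, whose other-cell markers stood apart, Setd1b (0.56, adjusted p = 0.04) and Kdm3a (0.47, adjusted p = 0.047) were called as well.

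Probe sets of the 3 genes differed with their brightness. Kmt2e had 6, and the 4 bright ones were all called higher in null cells with peptide, by 0.75, 0.52, 0.62 and 0.70, while the 2 dim ones were not called. Of 5 probe sets of Kdm7a the 2 brightest were called (0.53 and 0.58), and of 7 of Kdm2a only the brightest (0.43), while the next 3 differed by 0.40, 0.36 and 0.34 without passing and the other 3 by -0.06 to 0.03.

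**Figure D4:**
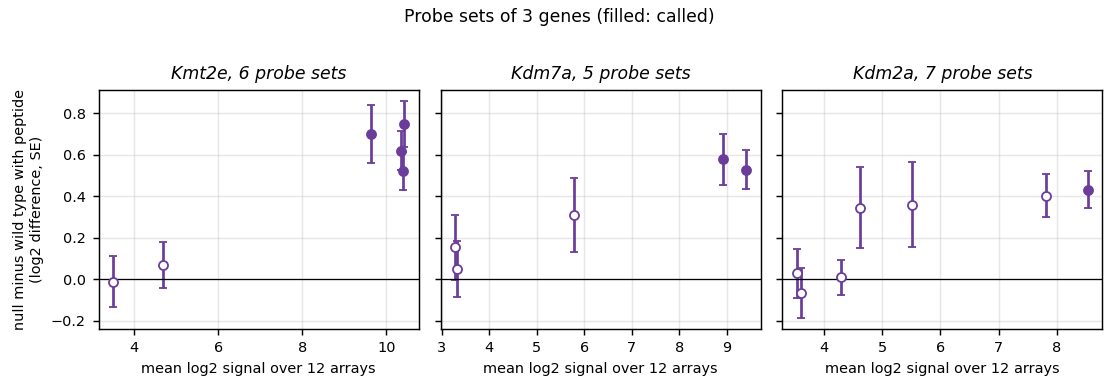
Difference null minus wild type with peptide (log2, with its standard error) of every probe set of Kmt2e, Kdm7a and Kdm2a against the mean log2 signal over 12 arrays; filled points passed the test. The called probe sets are the brightest of each gene, and the dimmest ones lie near 0.

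Most of the other differences had the same sign without passing. Of the 51 differences with peptide 40 were positive (78.4%, against 43.5% of all genes), and the median was 0.15 against -0.03 over all genes. In the limma fit 18 of the 51 had an unadjusted p under 0.05, against 3202 of all 18193 genes. The 2 next smallest p were those of Ehmt2, which read 7.52, 7.79 and 7.49 in null and 7.24, 7.14 and 7.31 in wild-type cells (0.37, adjusted p = 0.084), and Nsd1, which read 8.62, 8.57 and 8.61 in null and 8.27, 8.20 and 8.28 in wild-type cells (0.35, adjusted p = 0.14). The values lay apart, higher in null cells, for 18 of the 51 genes, against 10.9% of all genes. They lay apart and lower for 6 of the 51, near the 12.8% of all genes. All 8 H3K4 methyltransferases had positive differences, from 0.12 to 0.75. Of the 8 arginine methyltransferases 5 had negative ones, which is near the share over all genes (10279 of 18193). Their median was -0.07, with a range of -0.25 to 0.33. Ezh2 had a negative difference too, at -0.21 (adjusted p = 0.21), with null values of 8.38, 8.26 and 8.30 below the wild-type values of 8.51, 8.56 and 8.49. This comparison shares its arrays with the changes with peptide given above. Of the 51 genes, 28 were called lower with peptide in wild-type cells, against 20.4% of all genes. Over all genes called lower in both genotypes, 74.9% fell less in null cells. The part of these falls in the positive differences was not tested. Among the related lists 1 CoREST partner, Zmym2, was higher (0.45, adjusted p = 0.044) and 1 gene of the methyl donor cycle, Ahcyl2, lower in null cells (-0.57, adjusted p = 0.027).

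**Figure D5:**
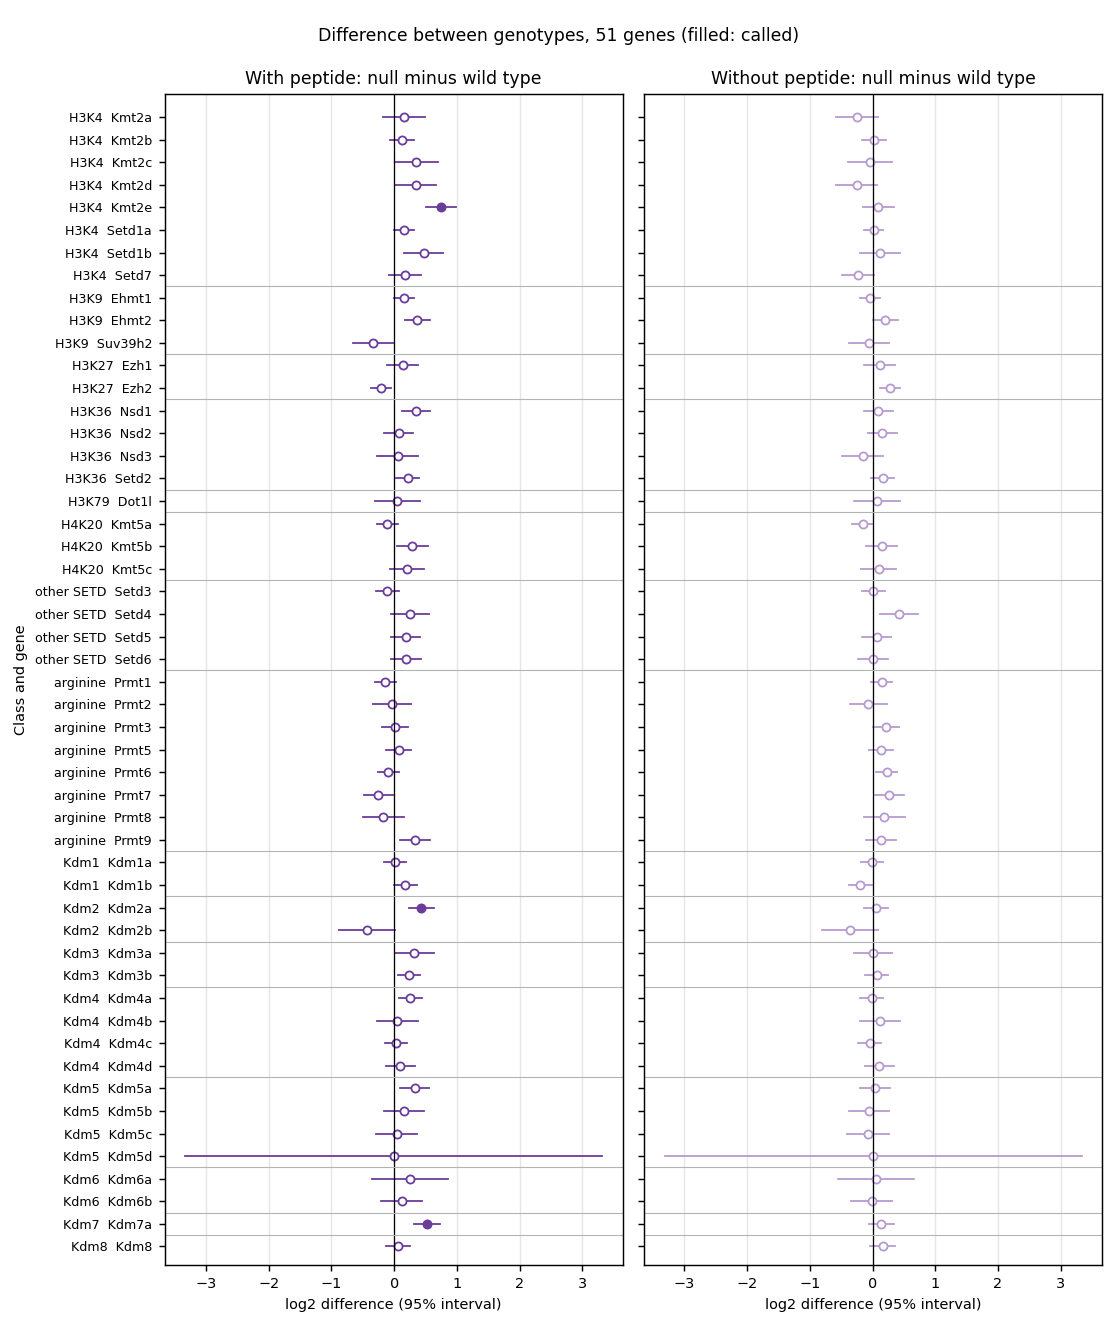
Difference null minus wild type of each of the 51 genes by class, as the log2 difference with its 95% interval, with peptide (left) and without (right); filled points passed the test. Kmt2e, Kdm2a and Kdm7a are called with peptide and no gene is called without it.

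Markers of other cells moved with genotype and peptide as well. The summed log2 level of the 7 B cell markers was 58.8 to 62.9 in null and 54.0 to 55.9 in wild-type cells with peptide, and 63.5 to 68.0 in null and 60.3 to 61.1 in wild-type cells without. With peptide Fcrla and Cd79b, 2 of the 7, were higher in null cells (1.25 and 1.19), as was 1 of 4 plasma cell markers, Sdc1 (1.26), and without peptide 0 passed. The summed level of the 3 erythroid markers was 11.9 to 12.7 in null and 14.1 to 16.4 in wild-type cells with peptide, with 0 of 3 called. That gap came from Alas2 (-2.43), while Hba-a1 and Slc4a1 lay below the median of all 12 arrays. The NK cell marker Klrd1, which T cells also use, was lower in null cells with peptide (-0.92, adjusted p = 0.027). Of the B cell markers 4 fell with peptide in null and 5 in wild-type cells. In such a mixture fewer cells of a type and less RNA per cell cannot be told apart, and the part of other cells in the results on the 51 genes was not tested. The 3′ minus 5′ signal of the actin controls, a sign of RNA quality, was 0.179 to 0.221 in null and 0.181 to 0.238 in wild-type cells with peptide, and 0.214 to 0.355 in null and 0.252 to 0.296 in wild-type cells without. Its part in the changes was not tested.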

How the data were processed

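Per the submitters' processing notes, the authors made the deposited log2 signals with Expression Console 1.1, and no source at hand names the normalization. Of 45101 probe sets in the table, 64 controls were set aside, and of the other 45037, 34945 had 1 gene symbol, 932 several and 9160 none. Each gene was represented by its brightest probe set over 12 arrays. A group-means model (limma 3.58.1, R 4.3.3; 8 residual and 4.18 prior degrees of freedom) gave 5 comparisons: peptide against none in each genotype, null against wild type with and without peptide, and the difference between the changes with peptide. The p-values were Benjamini-Hochberg adjusted over 45037 probe sets and called under 0.05. The fit was tested on simulated data.

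Per-array values were given for up to 4 genes a class with the largest called changes with peptide (the largest change where none was called), those called between genotypes, and the 5 with the smallest p in each such comparison and in the difference, and up to 3 called genes were named from each related list; Prmt1, Kdm5c, Kdm5d and Xist were added after their values were seen. The members and lists were chosen with earlier results of these data known. Animal numbers in the labels pair the peptide and no-peptide arrays of a mouse. The same mouse's deviations from the group means correlated at 0.42, 0.58 and 0.44 in null and 0.40, 0.12 and 0.33 in wild-type mice, those of different mice at 0.13 at most. Alternatives were the mouse as a block, quantile normalization, median centring, a filter on dim probe sets, the mean of a gene's probe sets, no s_at or x_at probe sets, a fit of the compared groups alone, eBayes with trend, and leaving out each array or mouse. For the changes with peptide and their difference, the block was a fixed term for each mouse. Between genotypes it was a random term (limma's duplicateCorrelation, 0.202). Promoter sequences came from RefSeq, GRCm38.p6.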

Additional observations from a re-analysis of the deposited data

How the results depend on the processing

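Counts of the 51 genes called kept within 1.5 times of the reported ones for the changes with peptide in all 26 alternatives. Leaving out 1 array or 1 mouse gave 34 to 39 in null cells and 38 to 41 in wild-type cells, and leaving out null mouse 2, whose markers of other cells stood apart, gave 36 in null cells. Null against wild type with peptide gave 0 to 5 under the same omissions, 0 in a fit of the peptide arrays alone and 1 with the mean over all probe sets, against 3 reported. Null against wild type without peptide and the difference between the changes gave 0 in every omission. With the mouse as replicate block, which uses the pairing of arrays within a mouse, the counts were 40 in null and 43 in wild-type cells, 3 and 0 between genotypes with and without peptide, and 0 for the difference. The block changed no call other than those named beside Setd1a, Kdm6a, Prmt8, Kdm4b and Kdm5b. With the mean over all probe sets, Kdm3b turned to 0.29 in null and 0.18 in wild-type cells and Setd5 to 0.0475 in null cells. The null rise of Kdm3b passed under that alternative, against a called fall as reported. Those genes have probe sets that moved in opposite directions. Quantile normalization and median centring moved the median of all genes by under 0.1. Signal over background limits Kdm4d and Prmt8, which lay below the median of all 12 arrays. The Y-linked Kdm5d lay below it on 8 arrays, those on which Xist read 11.2 to 12.2.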
